A study of Mus musculus with 6 samples.

Results

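The regulators of G protein signaling, the RGS genes, were measured in primary oviductal smooth muscle cells of mice. The 10 members are Rgs2, Rgs3, Rgs4, Rgs5, Rgs10, Rgs12, Rgs14, Rgs16, Rgs17 and Rgs19, taken from the table by gene symbol, and each had 1 row among the 54232 genes of the count table. RNA-seq was performed on 6 libraries of 2 groups with 3 libraries each. The WT group came from females that the labels call WT, while a legend in the study's supplement names Pbrm1 fl/fl mice as controls. The Pbrm1 cKO group came from Pbrm1 fl/fl females carrying PR-IRES-cre, in which the cre stands at the progesterone receptor gene and acts in cells that express that receptor. Pbrm1 encodes a subunit of the PBAF chromatin remodeling complex. All females were 8 to 12 weeks old and were mated, and oviducts were taken on day 2 of pregnancy. The tissue was minced, digested with trypsin, collagenase and dispase, filtered and plated for some hours before RNA was prepared. The same legend calls the 3 libraries of a group biological replicates. The strain, and whether a library came from 1 animal or a pool, are not given in the labels, so p-values measure the spread between these libraries as prepared.

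RGS proteins bind the active, GTP-loaded alpha subunit of a heterotrimeric G protein and speed the hydrolysis of GTP, which ends the signal of the receptor upstream. In smooth muscle, receptors coupled to Gq raise calcium through phospholipase C beta and drive contraction, receptors coupled to Gi lower cyclic AMP, and those coupled to Gs raise it and favor relaxation. The small proteins of the R4 subfamily (here Rgs2, Rgs3, Rgs4, Rgs5 and Rgs16) act on Gq and Gi alpha subunits in varying measure. The R12 subfamily (Rgs10, Rgs12 and Rgs14) and the RZ subfamily (Rgs17 and Rgs19) act mainly on alpha subunits of the Gi class.

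Libraries held between 15390818 and 18947947 counts, and the floor of 3 counts lay between 0.159 and 0.193 CPM (read counts scaled by library size and composition). Such limits cover counting error only. The targeted gene Pbrm1, which spans 31019138 to 31121592 on the plus strand of chromosome 14, stood at 170.1, 183.3 and 172.1 CPM in WT and at 43.5, 50.7 and 42.7 CPM in Pbrm1 cKO libraries (edgeR log2 fold change -1.94, adjusted p = 9.13e-11), and reads from exons outside the deleted part also count here. All 10 smooth muscle markers were detected, with a summed level of 3498 to 3570 CPM in WT and 4272 to 4769 CPM in Pbrm1 cKO, led by Tagln, Acta2 and Des. Of these 10, 5 rose and 1, Smtn, fell (edgeR log2 fold change -0.29, adjusted p = 0.00169). Over all tested genes, 21.9% were called higher and 21.8% lower. Markers of other cell types were present too. The summed level of 10 fibroblast markers was 5358 to 5950 CPM in WT and 7996 to 8352 CPM in Pbrm1 cKO, that of 10 epithelial markers 958 to 1036 and 1209 to 1349 CPM, and that of 8 mesothelial markers, with Calb2 at 0 in every library, 420.1 to 439.7 and 329 to 346 CPM. Of 10 endothelial markers, 3 rose (Vwf, Egfl7 and Esam) and 1 fell, with a list median of 0.05 (log2). Their summed level was 374 to 394 CPM in WT and 320.4 to 332 CPM in Pbrm1 cKO, where Kdr, the marker that fell, went from 181.7 to 99.4 CPM. The part of these cell types in the results on RGS genes was not tested, and in bulk RNA fewer cells of a type and less RNA per cell cannot be told apart.

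The start regions of the 4 members with an adjusted p under 0.05 and the largest changes are shown because Rgs4 and Rgs5 are neighbors that moved in opposite directions, while Rgs2 and Rgs12 were lower. Each sequence runs from 250 bases before to 50 bases after the start site in RefSeq (GRCm38.p6) and is written 5′ to 3′ on the strand of the gene. Capitals mark matches on either strand. The motifs searched were the half-site of the cyclic AMP response element with the letters TGACG, the site of the AP-1 transcription factors with the letters TGANTCA, the E-box with the letters CACGTG, the TATA box with the letters TATAAA, and the GC box with the letters GGGCGG.
Rgs4 (chr1:169747593-169747892, minus strand): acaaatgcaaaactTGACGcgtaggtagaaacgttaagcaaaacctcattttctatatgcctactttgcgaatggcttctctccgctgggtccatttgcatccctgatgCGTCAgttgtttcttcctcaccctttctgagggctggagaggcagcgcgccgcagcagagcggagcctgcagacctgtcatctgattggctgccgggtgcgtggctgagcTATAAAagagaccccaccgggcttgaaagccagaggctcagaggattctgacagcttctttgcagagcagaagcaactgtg
Rgs5 (chr1:169655251-169655550, plus strand): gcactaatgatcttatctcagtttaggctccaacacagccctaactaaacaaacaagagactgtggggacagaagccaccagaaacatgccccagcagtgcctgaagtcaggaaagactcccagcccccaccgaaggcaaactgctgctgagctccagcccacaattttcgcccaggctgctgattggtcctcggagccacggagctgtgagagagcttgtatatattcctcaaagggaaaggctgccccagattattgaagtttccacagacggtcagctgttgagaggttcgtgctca
Rgs2 (chr1:144004100-144004399, minus strand): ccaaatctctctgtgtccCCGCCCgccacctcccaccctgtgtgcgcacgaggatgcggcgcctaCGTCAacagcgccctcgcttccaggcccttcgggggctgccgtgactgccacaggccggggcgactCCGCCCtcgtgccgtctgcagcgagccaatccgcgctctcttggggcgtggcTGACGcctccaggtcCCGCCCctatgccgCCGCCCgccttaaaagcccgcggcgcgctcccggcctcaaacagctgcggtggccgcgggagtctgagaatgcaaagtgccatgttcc
Rgs12 (chr5:34949198-34949497, plus strand, the first of its starts): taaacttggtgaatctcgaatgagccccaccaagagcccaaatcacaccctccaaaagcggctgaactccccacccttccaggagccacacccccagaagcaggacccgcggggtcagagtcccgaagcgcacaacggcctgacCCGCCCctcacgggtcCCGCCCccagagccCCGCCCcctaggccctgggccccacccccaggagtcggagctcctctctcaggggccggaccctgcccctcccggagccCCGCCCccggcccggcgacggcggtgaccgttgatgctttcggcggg

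Positions are those of the first base of a match, with 1 at the start site and -1 just before it. The Rgs4 window held the half-site at -236 and -141 and the TATA box at -31. The Rgs5 window held none of these motifs. The Rgs2 window held the half-site at -185 and -67 and GC boxes at -232, -119, -52 and -38. The Rgs12 window held GC boxes at -106, -90, -76 and 4. The other start region of Rgs12, not shown, held the half-site at -82, the AP-1 site at -22 and a GC box at -46. GC content was 53.0% for Rgs4 and 52.3% for Rgs5, near the median of 52.7% over all promoters, and 70.0% for Rgs2 and 70.3% for Rgs12. Of the 32851 promoters of the same length in RefSeq, 20.8% held TGACG, 7.8% TGANTCA, 7.2% CACGTG, 13.6% TATAAA and 35.7% GGGCGG. These promoters held 13 start regions of 9 members and none listed for Rgs14. Among the 13, 3 held TGACG, 2 TGANTCA, 1 CACGTG, 3 TATAAA and 9 GGGCGG. The CArG box, the motif of serum response factor, was in 1.6% of all promoters and in 0 of the 13. No motif contains another, although neighbors can share end letters. A match is a string of letters and was not tested as a binding site. Rgs3, Rgs12 and Rgs19 have several start sites, and the gene-level counts do not separate them.

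The comparison of Pbrm1 cKO with WT asks which genes differ in oviductal muscle cells after the loss of Pbrm1. All 10 RGS genes passed the filter on low counts. By edgeR's quasi-likelihood test with Benjamini-Hochberg adjustment over all 15376 tested genes, Rgs2, Rgs3, Rgs4 and Rgs12 fell in Pbrm1 cKO libraries and Rgs5 and Rgs16 rose, while Rgs10, Rgs14, Rgs17 and Rgs19 did not pass the threshold of 0.05. These 6 of 10 (60.0%) stand beside 43.7% of all tested genes, the 4 that fell beside 21.8% of all genes, and the 2 that rose beside 21.9%. By subfamily, 5 of 5 R4 members passed the test (3 lower, 2 higher), as did 1 of 3 R12 members (lower) and 0 of 2 RZ members. The lowest and highest CPM of the groups left a gap in 7 of 10 members (70.0%), against 53.5% of all tested genes. The changes were small. The median absolute log2 fold change of the 10 genes was 0.32, beside 0.22 over all tested genes, the median signed change was 0.10 beside 0.0016, and no member had a log2 fold change beyond 1 in size. No test of the list was made, and nothing particular to it is read from these shares.

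**Figure D1:**
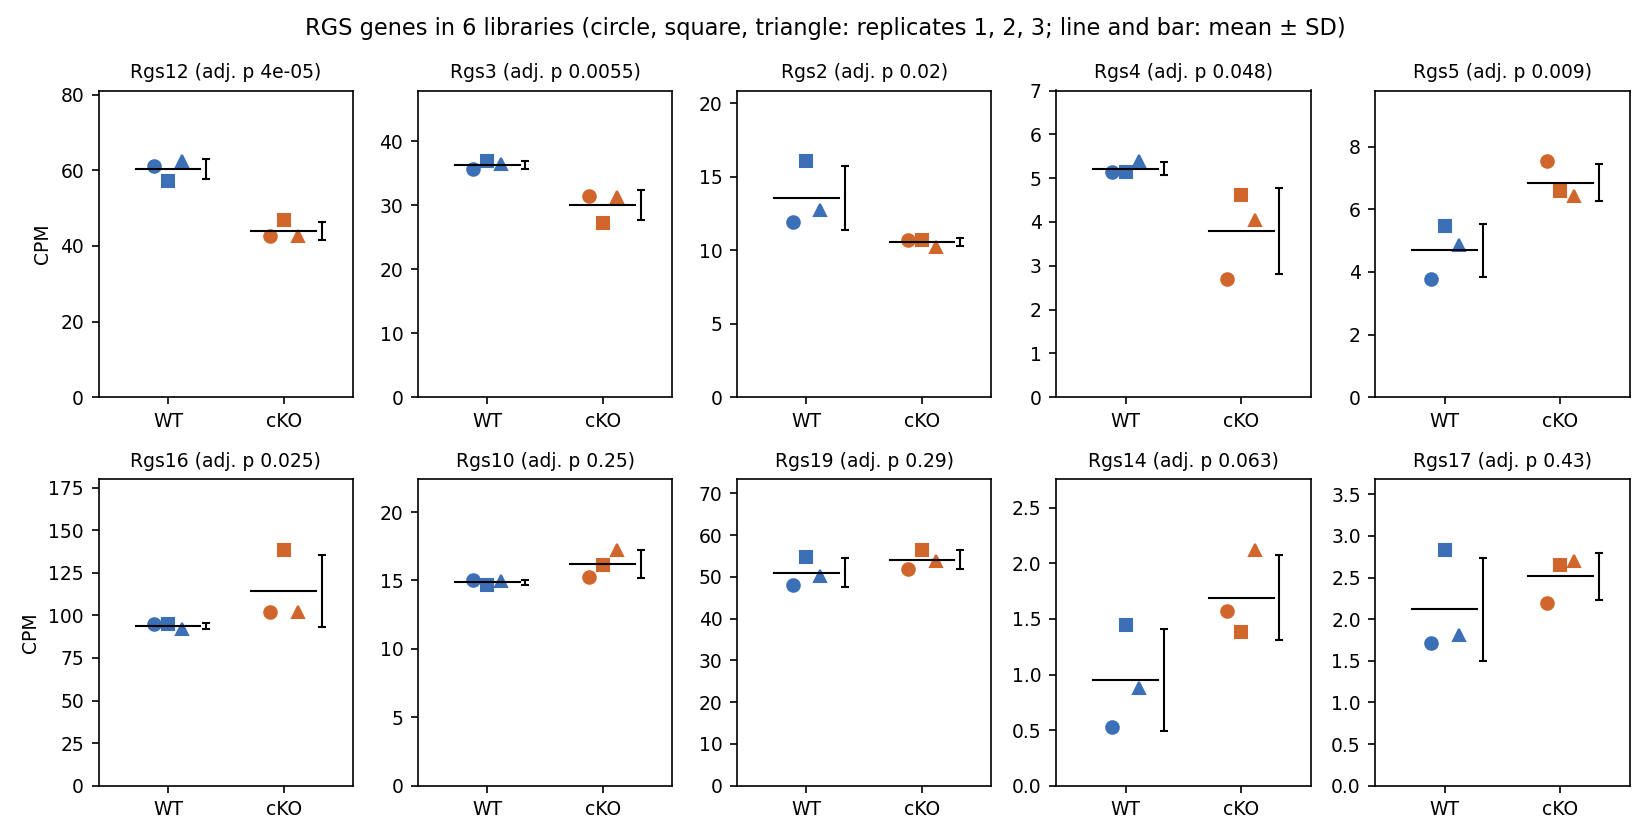
Normalized level of each RGS gene in CPM (vertical axes, each starting at 0) in the 3 WT and 3 Pbrm1 cKO libraries. Points are libraries, lines are group means and bars are SD over 3 libraries. For Rgs2, Rgs3, Rgs4 and Rgs12 every Pbrm1 cKO point lies under every WT point, and for Rgs5, Rgs10 and Rgs16 every Pbrm1 cKO point lies above.

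Rgs12 had the lowest adjusted p of the 10. It encodes a large R12 protein that joins its RGS domain to PDZ, phosphotyrosine-binding, Ras-binding and GoLoco domains and acts as a scaffold. The gene (ENSMUSG00000029101.16, chromosome 5, 34949445 to 35039644, plus strand) measured 61.2, 57.3 and 62.4 CPM in WT and 42.7, 46.7 and 42.5 CPM in Pbrm1 cKO libraries. All 3 Pbrm1 cKO libraries lay under the lowest WT library. The mean fell from 60.3 ± 2.66 to 44.00 ± 2.37 CPM (SD, n = 3 each), which is 73.0% of WT, with a log2 fold change of -0.45 (SE 0.0594, 95% interval -0.58 to -0.32, adjusted p = 3.99e-05). A larger absolute change was found in 23.3% of tested genes.

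Rgs3, an R4 member with long forms that carry added domains, also fell. It (ENSMUSG00000059810.18, chromosome 4, 62559847 to 62704001, plus strand) measured 35.6, 36.8 and 36.4 CPM in WT and 31.5, 27.3 and 31.3 CPM in Pbrm1 cKO. The WT libraries were close together and all lay above the Pbrm1 cKO libraries. The mean fell from 36.3 ± 0.638 to 30.03 ± 2.39 CPM (SD, n = 3 each), with a log2 fold change of -0.27 (SE 0.0688, 95% interval -0.42 to -0.13, adjusted p = 0.0055). This size of change was common, since 41.0% of tested genes changed by more.

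Rgs2 encodes a small protein that acts preferentially on Gq and limits the tone of vascular smooth muscle. The gene (ENSMUSG00000026360.9, chromosome 1, 143999338 to 144004161, minus strand) measured 11.9, 16.04 and 12.7 CPM in WT and 10.7, 10.7 and 10.2 CPM in Pbrm1 cKO. The groups did not overlap, but WT replicate 2 stood above the other WT libraries. The mean fell from 13.5 ± 2.20 to 10.5 ± 0.272 CPM (SD, n = 3 each), with a log2 fold change of -0.36 (SE 0.115, 95% interval -0.61 to -0.12, adjusted p = 0.02). Without WT replicate 2 the log2 fold change was -0.22 and the call was lost (adjusted p = 0.13), and without Pbrm1 cKO replicate 1 the adjusted p was 0.0509.

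Rgs4 encodes a regulator of Gi and Gq whose protein is short-lived. The gene (ENSMUSG00000038530.11, chromosome 1, 169741477 to 169747642, minus strand) measured 5.14, 5.13 and 5.39 CPM in WT and 2.70, 4.62 and 4.05 CPM in Pbrm1 cKO, from 87, 96 and 92 counts and from 48, 87 and 63 counts. The WT libraries were nearly equal, and the Pbrm1 cKO libraries all lay below them and apart from each other. The mean fell from 5.22 ± 0.144 to 3.79 ± 0.985 CPM (SD, n = 3 each), with a log2 fold change of -0.46 (SE 0.176, 95% interval -0.84 to -0.08, adjusted p = 0.0481). This call lay at the threshold, and 7 of 14 alternatives ended it. DESeq2 gave an adjusted p of 0.0914, scaling by library size alone 0.054, leaving out WT replicate 1, 2 or 3 0.0877, 0.0918 or 0.119, and leaving out Pbrm1 cKO replicate 3 0.0595. Without Pbrm1 cKO replicate 1 the log2 fold change was -0.26 (adjusted p = 0.208).

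Rgs5, the R4 member best known from pericytes and vascular smooth muscle, rose. It (ENSMUSG00000026678.10, chromosome 1, 169655501 to 169695813, plus strand) measured 3.78, 5.45 and 4.86 CPM in WT and 7.54, 6.58 and 6.43 CPM in Pbrm1 cKO. Every Pbrm1 cKO library lay above the highest WT library. The mean rose from 4.70 ± 0.847 to 6.85 ± 0.599 CPM (SD, n = 3 each), or 145.8% of WT, with a log2 fold change of 0.54 (SE 0.147, 95% interval 0.22 to 0.86, adjusted p = 0.00898). Most tested pericyte markers also rose. Of 10 listed, 7 were tested, of which 6 rose and 1 fell, beside 21.9% of all tested genes higher and 21.8% lower. Their summed level was 462 to 499 CPM in WT and 572 to 659 CPM in Pbrm1 cKO, and most of it was Pdgfrb. Pdgfrb, a PDGF receptor, rose from 349.7 ± 14.3 to 469 ± 44.8 CPM (log2 fold change 0.42), and Mcam, an adhesion molecule, rose from 26.0 ± 1.83 to 33.4 ± 5.06 CPM (0.35). Cspg4, the NG2 proteoglycan, fell from 91.3 ± 9.84 to 55.9 ± 15.5 CPM (-0.70). The pericyte markers Higd1b, Cox4i2 and Vtn lay between 0.130 and 0.339 CPM in the group means, and no marker was at 0 in every library. The part of pericytes in the level of Rgs5 was not tested.

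Rgs4 and Rgs5 lie next to each other on chromosome 1, on opposite strands, with 45663 bases between the gene bodies. In RPKM (CPM per kilobase of exon), the ratio of Rgs5 to Rgs4 was 0.501, 0.724 and 0.615 in WT and 1.90, 0.971 and 1.08 in Pbrm1 cKO. The ratios of the groups did not overlap, and this follows from the separate changes of the genes and is no added test. Rgs16 and Rgs2 lie on the same chromosome, so that it holds 4 of the 10 members and 11 of the 21 RGS genes listed, while the 6 others lie on a chromosome each. Of these 4 genes on chromosome 1, Rgs2 and Rgs4 were lower and Rgs5 and Rgs16 higher.

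Rgs16, an R4 member that acts on Gi and Gq and is induced by many stimuli, had the highest level per length of the 10. It (ENSMUSG00000026475.7, chromosome 1, 153740349 to 153745468, plus strand) measured 95.02, 94.6 and 91.9 CPM in WT and 102.0, 138.5 and 101.8 CPM in Pbrm1 cKO. The groups did not overlap, and Pbrm1 cKO replicate 2 stood far above the rest. The mean rose from 93.9 ± 1.69 to 114.1 ± 21.1 CPM (SD, n = 3 each), with a log2 fold change of 0.28 (SE 0.0935, 95% interval 0.08 to 0.49, adjusted p = 0.0246). Without Pbrm1 cKO replicate 2 the log2 fold change was 0.12 with an adjusted p of 0.0422, and without WT replicate 1, 2 or 3 the adjusted p was 0.0606, 0.0578 or 0.0886. Most listed genes that respond to tissue dissociation, but not all, moved as well. Of 15 listed and tested, 8 rose and 1 fell, beside 21.9% of all tested genes higher and 21.8% lower. Their summed level was 838 to 929 CPM in WT and 1035 to 1163 CPM in Pbrm1 cKO. Their part in the levels of Rgs16, which rose, and of Rgs2, which fell, was not tested.

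**Figure D2:**
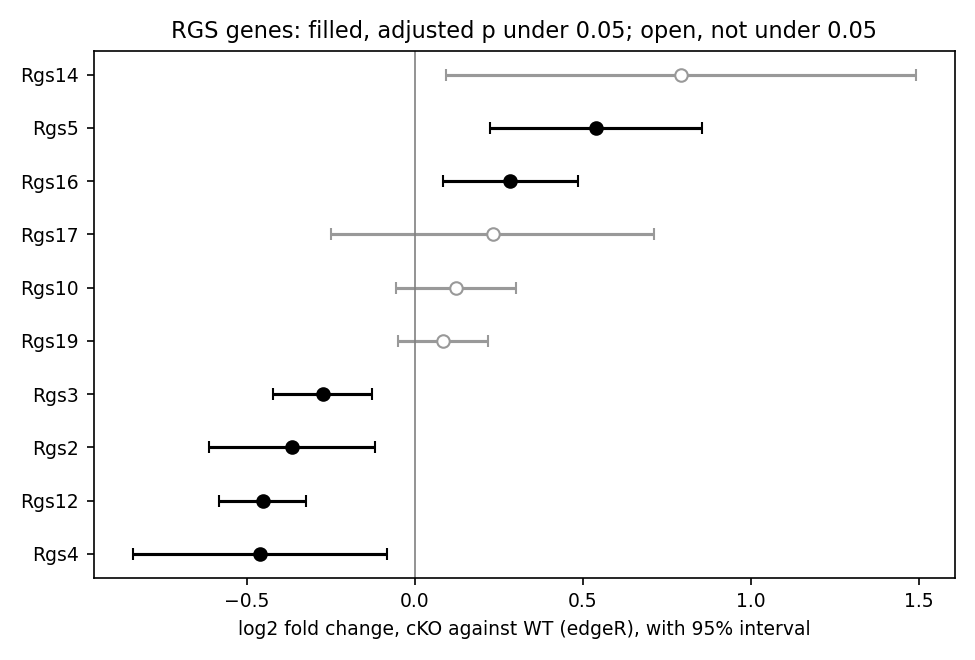
Log2 fold change of each RGS gene, Pbrm1 cKO against WT, from edgeR (horizontal axis) with its 95% interval before adjustment, 3 libraries a group. Filled points have an adjusted p under 0.05. The intervals of Rgs3, Rgs2, Rgs12 and Rgs4 lie below 0, those of Rgs16, Rgs5 and Rgs14 above 0, and the open point of Rgs14 has the widest interval, from 0.09 to 1.49.

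The other R12 members did not pass the test. Rgs10, a small protein best known from immune cells and platelets (ENSMUSG00000030844.11, chromosome 7, 128373621 to 128418758, minus strand), stood at 15.01, 14.7 and 14.9 CPM in WT and at 15.2, 16.1 and 17.2 CPM in Pbrm1 cKO. The groups did not overlap, yet the log2 fold change was only 0.12 (95% interval -0.05 to 0.30, adjusted p = 0.252), and 0.08 without Pbrm1 cKO replicate 3. Rgs14, known for its GoLoco domain and its role in hippocampal neurons (ENSMUSG00000052087.14, chromosome 13, 55369732 to 55384687, plus strand), stood at 0.532, 1.44 and 0.878 CPM in WT and at 1.58, 1.38 and 2.12 CPM in Pbrm1 cKO, from 9 to 33 counts per library. The groups overlapped. Its log2 fold change of 0.79 was the largest of the 10 in size and the least certain (SE 0.324, 95% interval 0.09 to 1.49, adjusted p = 0.0634). Without WT replicate 1 it was 0.51 (adjusted p = 0.235), and without WT replicate 2 it was 1.24 (adjusted p = 0.0161).

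The RZ members had the smallest log2 fold changes of the 10 in relation to their SE. Rgs19, also known as GAIP (ENSMUSG00000002458.13, chromosome 2, 181688419 to 181693977, minus strand), stood at 47.98, 54.8 and 50.2 CPM in WT and at 51.9, 56.5 and 53.9 CPM in Pbrm1 cKO, with overlapping groups and a log2 fold change of 0.08 (95% interval -0.05 to 0.22, adjusted p = 0.295). Rgs17, a regulator of Gi and Gz (ENSMUSG00000019775.17, chromosome 10, 5825663 to 5922400, minus strand), stood at 1.71, 2.83 and 1.82 CPM in WT and at 2.19, 2.65 and 2.70 CPM in Pbrm1 cKO, with overlapping groups and a log2 fold change of 0.23 (95% interval -0.25 to 0.71, adjusted p = 0.429). The interval of Rgs19 is narrow and holds changes of at most 0.22, whereas that of Rgs17, with 29 to 53 counts per library, allows larger ones. Leaving out WT replicate 1, 2 or 3 moved the log2 fold change of Rgs17 to 0.10, 0.51 or 0.13, and leaving out WT replicate 1, WT replicate 2 or Pbrm1 cKO replicate 2 moved that of Rgs19 to 0.04, 0.14 or 0.05, with no call in any of these.

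Levels per length, in RPKM, spanned a wide range. They depend on the exon length given for the gene, which was 10801 bases for Rgs3 and 1711 for Rgs10. By CPM the WT order differed, with Rgs12 (60.3) above Rgs19 (51.0) and Rgs3 (36.3) above Rgs10 (14.9). In WT the order was Rgs16 (40.1 ± 0.723 RPKM), Rgs19 (22.9), Rgs10 (8.69), Rgs12 (7.10), Rgs2 (3.73), Rgs3 (3.36), Rgs4 (1.69), Rgs5 (1.03), Rgs17 (0.256) and Rgs14 (0.224), each as the mean over 3 libraries. Neighbors in this order did not overlap except Rgs2 with Rgs3 and Rgs17 with Rgs14. In Pbrm1 cKO the order was the same from Rgs16 to Rgs3, and then Rgs5 (1.51 RPKM) stood above Rgs4 (1.22 RPKM) and Rgs14 (0.399 RPKM) above Rgs17 (0.303 RPKM), with overlapping libraries in both pairs. Rgs16 made up 45.1 ± 1.20% of the summed RPKM of the 10 genes in WT and 50.1 ± 3.88% in Pbrm1 cKO. Rgs12 made up 7.99 ± 0.541% and 5.38 ± 0.272%. Rgs19 made up 25.7 ± 1.09% and 25.2 ± 1.58%.

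**Figure D3:**
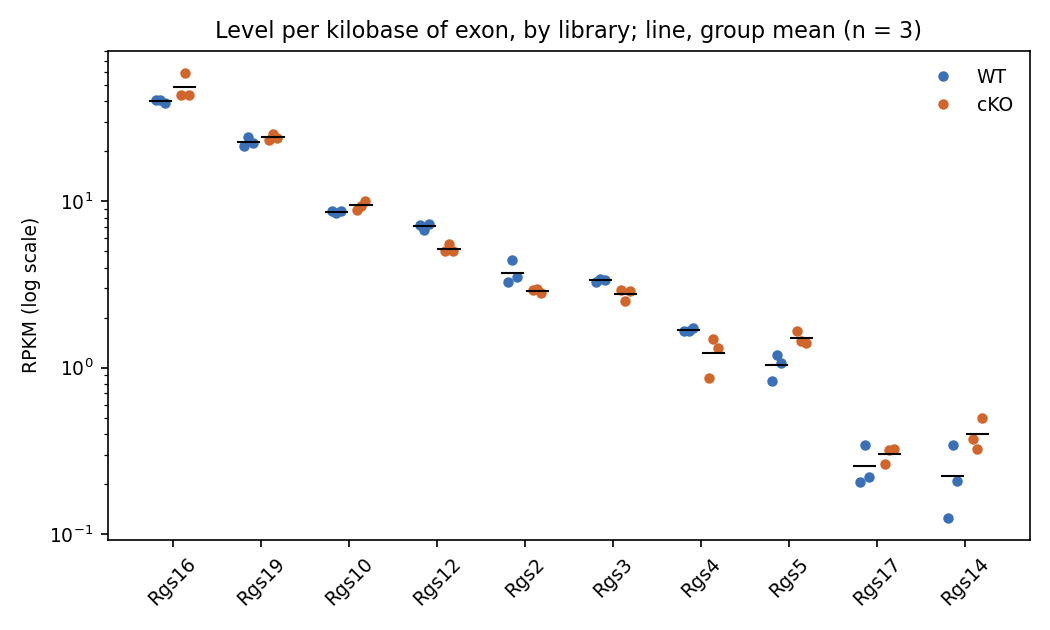
Level of each RGS gene in RPKM (log scale) in the WT and Pbrm1 cKO libraries, with a line at each group mean over 3 libraries. Rgs16 and Rgs19 lie highest in both groups, and Rgs17 and Rgs14 lie lowest, under 1 RPKM.

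Among the other RGS genes, 2 of 11 passed the filter on low counts. Rgs1, an R4 member of lymphocytes and macrophages, was at 2.54, 3.90 and 3.40 CPM in WT and at 4.95, 5.15 and 5.28 CPM in Pbrm1 cKO. The groups did not overlap, and the gene rose with a log2 fold change of 0.63 (SE 0.164, adjusted p = 0.00654). Rgs11, of the R7 subfamily, had a mean of 1.25 ± 0.0702 CPM in WT and 0.854 ± 0.130 CPM in Pbrm1 cKO (SD, n = 3 each) with no overlap, and a log2 fold change of -0.54 (95% interval -1.10 to 0.03, adjusted p = 0.118). Rgs21 had 0 counts in every library. Most tested leukocyte markers moved in the same direction as Rgs1. Of 12 listed, none at 0 in every library, 10 were tested. Of these 9 rose and 0 fell, beside 21.9% of all tested genes higher and 21.8% lower. S100a8, the tested marker that did not pass, went from 0.839 to 0.427 CPM (edgeR log2 fold change -0.999, adjusted p = 0.079). The summed level was 261 to 271 CPM in WT and 406 to 428 CPM in Pbrm1 cKO. The macrophage markers Csf1r, Adgre1 and Cd68 rose from 70.8 to 106 CPM, from 53.9 to 73.9 CPM and from 48.3 to 69.4 CPM. The lymphocyte markers Cd3e and Cd79a lay between 0.0552 and 0.209 CPM in the group means. Both missed the filter on low counts, and both means were lower in Pbrm1 cKO. The part of leukocytes in the level of Rgs1, Rgs10 and Rgs14 was not tested.

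The targets of RGS proteins are the alpha subunits of G proteins, which pair with beta and gamma subunits. Of 8 genes for Gi class alpha subunits, 5 were tested and Gnai2 alone passed, rising from 227 to 257 CPM (log2 fold change 0.18, adjusted p = 0.0068). Of 4 genes of the Gq class, Gna14 alone passed (0.84, adjusted p = 0.0124), from 1.66, 1.71 and 0.878 CPM in WT to 2.70, 2.55 and 2.38 CPM in Pbrm1 cKO. Without WT replicate 3, the lowest, its adjusted p was 0.0502. Gnas, the stimulatory alpha subunit, rose from 687 to 795 CPM (0.21, adjusted p = 0.00117), and Gna12 rose from 123 to 138 CPM (0.17, adjusted p = 0.00531). Of 14 beta and gamma subunits, 10 were tested and 2 rose, Gng12 (0.37) and Gng2 (0.32). In total, 6 of the 23 tested subunits rose and 0 fell, beside 21.9% of all tested genes higher and 21.8% lower, and the median log2 fold changes of these groups lay between -0.08 and 0.12.

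Adenylyl cyclases make cyclic AMP. Of 9 listed, 9 were tested, and 4 rose and 0 fell, with a median log2 fold change of 0.32. The share called was close to that of all tested genes, of which 43.7% were called, 21.9% higher and 21.8% lower. Adcy5 was at 5.20, 5.35 and 5.33 CPM in WT and at 14.8, 11.99 and 13.3 CPM in Pbrm1 cKO, a log2 fold change of 1.33 (SE 0.113, adjusted p = 7.94e-07). Adcy2 (0.72), Adcy7 (0.33) and Adcy1 (0.32) were the others. The call of Adcy2 was lost without Pbrm1 cKO replicate 1 (adjusted p = 0.0543), and that of Adcy1 without WT replicate 2 or 3 (adjusted p = 0.0825 and 0.107) or without Pbrm1 cKO replicate 2, where its log2 fold change was 0.19 (adjusted p = 0.115). Of 4 phospholipase C beta genes, Plcb1 alone passed, rising from 3.08 ± 0.444 to 4.79 ± 0.749 CPM (adjusted p = 0.00957). Of 6 G protein coupled receptor kinases, which mark active receptors for arrestin, 5 were tested. Of these 3 rose and 1 fell, beside 21.9% of all tested genes higher and 21.8% lower. Grk3 was at 9.57, 8.66 and 7.67 CPM in WT and at 18.95, 13.6 and 16.9 CPM in Pbrm1 cKO, a log2 fold change of 0.93 (SE 0.128, adjusted p = 6.07e-05). Grk4 (0.84), Grk5 (0.30) and Grk6 (-0.13) lost their calls in 7, 3 and 5 of 14 alternatives. For Grk4 these were DESeq2, the replicate block, and leaving out WT replicate 2 or 3 or any Pbrm1 cKO library (adjusted p = 0.0546 to 0.167). For Grk5 they were leaving out WT replicate 2 or 3 or Pbrm1 cKO replicate 1 (adjusted p = 0.051 to 0.0745), and for Grk6 DESeq2, scaling by library size alone, and leaving out WT replicate 1 or 2 or Pbrm1 cKO replicate 1 (adjusted p = 0.0537 to 0.152).

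Partners of RGS proteins and other proteins with an RGS-like domain went both ways. Of 14 listed, 12 were tested, 4 rose and 1 fell, with a median log2 fold change of 0.04. Over all tested genes, 21.9% were called higher and 21.8% lower. Gpsm3, a GoLoco protein of leukocytes that holds Gi alpha subunits in the GDP-bound state, was at 3.13, 3.37 and 3.40 CPM in WT and at 7.25, 6.15 and 6.76 CPM in Pbrm1 cKO (log2 fold change 1.02, SE 0.136, adjusted p = 4.29e-05). Axin2, a Wnt target with an RGS-like domain, was at 20.4, 20.7 and 17.97 CPM in WT and at 13.8, 13.1 and 12.7 CPM in Pbrm1 cKO (-0.58, SE 0.0865, adjusted p = 0.000118). Snx14, a sorting nexin, rose (0.41), as did Ric8a, a chaperone of alpha subunits (0.23).

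The pathway of N-terminal cysteine degradation removes the initiator methionine, oxidizes the cysteine that follows and adds arginine, and ubiquitin ligases then send the protein to the proteasome. The proteins of Rgs4, Rgs5 and Rgs16 are known substrates. Of 8 genes listed and tested, 6 fell and 0 rose, beside 21.8% of all tested genes lower. The list median was -0.28 on the log2 scale, and the list was not tested. The methionine aminopeptidase Metap2 was at 167.5, 168.6 and 176.3 CPM in WT and at 132.6, 143.1 and 130.9 CPM in Pbrm1 cKO, with no overlap. It fell from 170.8 ± 4.82 to 135.5 ± 6.61 CPM (-0.33, adjusted p = 9.36e-05), and the ligases Ubr1 and Ubr4 fell with a log2 fold change of -0.28 each. The groups of Ubr4 overlapped, with WT replicate 3 at 270.3 CPM and Pbrm1 cKO replicate 2 at 271 CPM. Ubr4 lost its call without WT replicate 1 (adjusted p = 0.0623). Of these values, none measures the RGS proteins themselves.

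**Figure D4:**
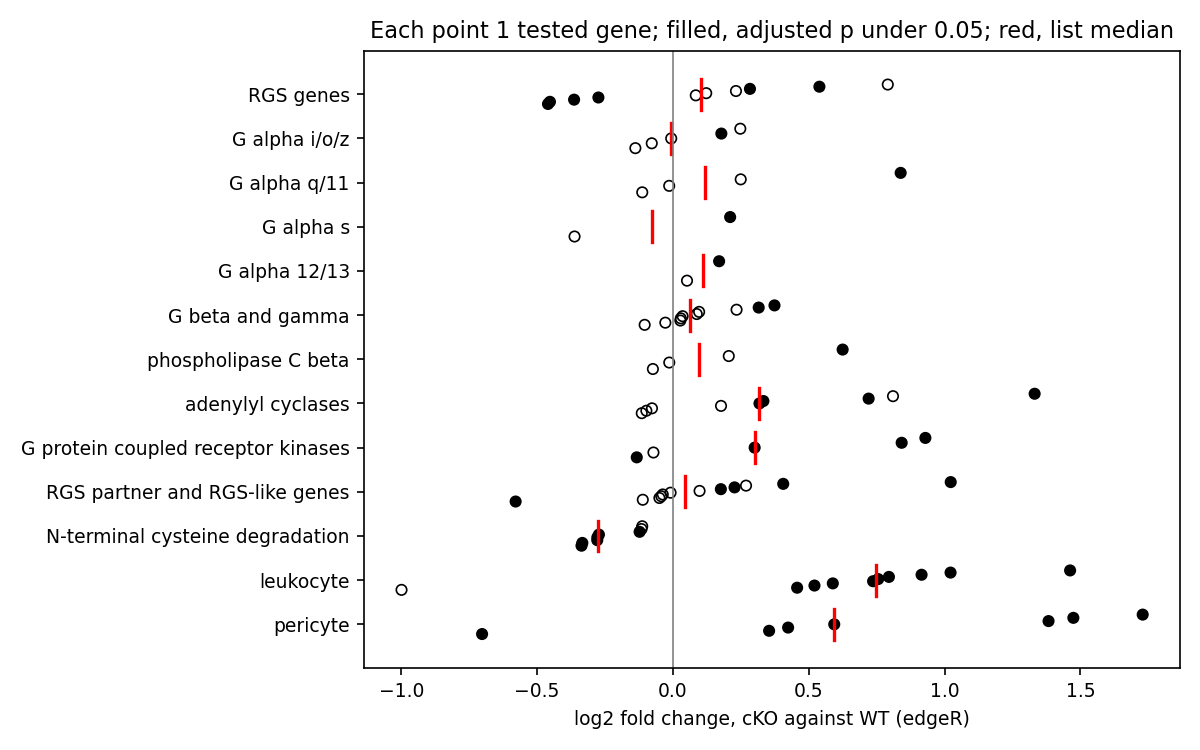
Log2 fold change, Pbrm1 cKO against WT from edgeR (horizontal axis), of every tested gene of the RGS genes, of the pathway lists and of the leukocyte and pericyte markers. Points are genes, filled where the adjusted p is under 0.05, and red marks are list medians. The adenylyl cyclases have a median of 0.32 with all called genes above 0, and the N-terminal cysteine degradation genes a median of -0.28 with all called genes below 0.

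Genes whose pattern over the 6 libraries was most like that of an RGS gene were listed among the 10604 or 10605 protein-coding genes at 5 CPM or more, by Pearson correlation of log2 CPM. For Rgs5 these were Ankrd40 (r = 0.995), 4833423E24Rik (0.994) and Anp32a (0.992). For Rgs4 they were Pald1 (0.997), Cwf19l1 (0.992) and Ndufa12 (0.991). For Rgs12 they were Kif24, Ube2q2 and Mex3c (0.997 each), and for Rgs2 Ambra1 (0.982), Thg1l (0.977) and Sms (0.974). The points share the libraries and the split into groups, and a value over 0.9 was reached by 1728 genes for Rgs12, 401 for Rgs5, 217 for Rgs4 and 171 for Rgs2, so that such a value singles out no gene.

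**Figure D5:**
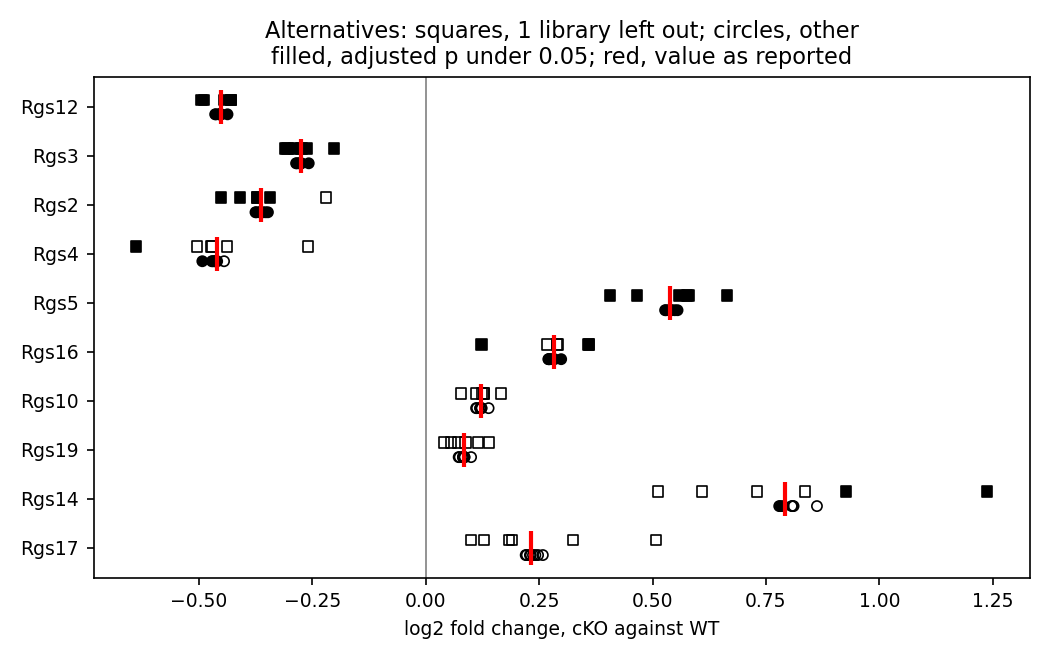
Log2 fold change of each RGS gene (horizontal axis) under the alternatives of processing. Squares leave out 1 library, circles are other choices, filled marks have an adjusted p under 0.05, and red bars are the reported values. Rgs5, Rgs12 and Rgs3 are filled throughout, Rgs4 is open in 7 of 14, and no gene crosses 0.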

How the data were processed

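RNA of 6 libraries was sequenced. The authors deposited 1 table of raw read counts per gene. These were made, per the file headers, by featureCounts 1.6.4 from exons of a GENCODE annotation, taking the reverse strand. The submitters' processing notes name cutadapt, HISAT2 and GRCm38.p5. By default this program drops multimapping reads and reads shared by genes of a strand. Antisense genes were thus counted apart from Rgs3, Rgs12 and Rgs16, and same-strand genes that overlap Rgs10 and Rgs12 held at most 5 counts in a library. Shared reads are not in these counts, so they do not show how many reads Rgs10 and Rgs12 lost. Symbols came from GENCODE M21 for 54079 of 54232 genes (99.7%). No protein sequences were used.

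Counts were tested with edgeR 4.0.16 in R 4.3.3 (TMM scaling, filterByExpr by group, quasi-likelihood F-test, two-sided, Benjamini-Hochberg adjustment over 15376 genes, threshold 0.05). CPM use the TMM library sizes, and RPKM divide them by exon length. Every pair of libraries of a group differed by more than sampling noise (chi-square per gene 1.32 to 1.60), so none was counted as a library deposited again, which does not show that they are independent. DESeq2 1.42.0, voom in limma 3.58.1, other scalings and filters, a replicate block and leaving out each library were alternatives. The code was tested on simulated data.

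The 10 genes and all lists were chosen with earlier results of these data known, so no list was tested. Named were all RGS genes that passed the filter, up to 4 called genes of each pathway list with the largest changes, up to 3 markers of the highest level of a list, and the 3 genes most like each of 4 RGS genes. Some genes that this rule picks are not reported here. Rgs21, Vwf, Egfl7, Esam, Calb2, Higd1b, Cox4i2, Vtn, Cd3e, Cd79a, Smtn and S100a8 fall outside this rule and were chosen after their values were seen.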

Additional observations from a re-analysis of the deposited data

How the results depend on the processing

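Of 139 values of the 10 RGS genes over 14 alternatives, 124 kept their side of the threshold, 12 lost a call, 3 gained a call and 0 changed sign. Rgs5, Rgs12 and Rgs3 kept their call in all 14, and Rgs10, Rgs17 and Rgs19 were called in none. The calls that changed were those of Rgs2, Rgs4, Rgs14 and Rgs16. Rgs14 was called with no filter on low counts (adjusted p = 0.0249) and without Pbrm1 cKO replicate 2 (adjusted p = 0.0381), and was not tested with at least 10 counts required in every library. The number of RGS genes called was 6 by edgeR, 5 by DESeq2, 6 by voom, 5 when scaled by library size alone, 7 with no filter, and between 4 and 7 with 1 library left out. At an adjusted p under 0.01 it was 3. With a stricter cutoff, a change over 1.5-fold with p under 0.01 and adjusted p under 0.1, it was 0, while 7 had an unadjusted p under 0.05 in edgeR. The same cutoff left 2002 of all genes. Over all genes DESeq2 called 5535, and leaving out 1 library gave between 5532 and 7054. The all-gene median was at most 0.02 (log2) under any scaling.

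Same-numbered libraries correlated at -0.02, 0.04 and 0.09 in their deviations from the group means. Differently numbered libraries were not compared, so these values cannot decide whether replicate numbers pair the libraries. With a replicate block 6 RGS genes and 6908 of all genes were called, of which 6617 were shared with the fit without it. Among Pbrm1, the 10 RGS genes and 26 other RGS and pathway genes that the naming rule picked, the block ended the call of Grk4 alone (adjusted p = 0.057). The named cell markers and the genes most like an RGS gene were not followed over the alternatives. Of 364 values of these 26 genes, 21 lost a call and 0 changed sign. Counts of 9 to 53 per library limit what can be said of Rgs14 and Rgs17, and 3 libraries a group limit every value. The cause of each lost call was not tested.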
